A study of Mus musculus with 6 samples.

Results

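The collagen genes were followed in the livers of newborn wild-type mice and of newborn mice lacking Cugbp1, the gene now named Celf1, whose product is an RNA-binding protein. A gene was taken as a collagen when its name in the signal table was Col, a number, a and a number, and each gene was read from its probe with the highest mean over the 6 arrays. This gave 41 genes on 63 probes, of 29862 named genes on the array. By class, 11 were fibrillar, 8 belonged to basement membranes and 22 were of other kinds. A probe counted as detected on an array when it lay above the 30th percentile of that array, and a gene was tested when all 3 arrays of either genotype detected it. By that filter 34 collagens were tested, among 30924 features in all, namely all 11 fibrillar, 7 basement membrane and 16 other collagens. Col6a3, Col6a5 and Col26a1 were not analysed here.

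Wild-type mice and Cugbp1 knockout mice were compared, with 3 livers of each genotype. The mice were 3 days old, and total liver RNA carrying the Cy3 dye was read on one-colour whole-genome arrays. The sources used here do not say how the Cugbp1 allele was made or whether animals came from separate litters. The p-values therefore reflect only the spread among these 6 livers, which may be partly technical. All values below are log2 signals, scaled to the 75th percentile of each array, and differences are knockout minus wild-type.

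Collagens are secreted proteins wound from 3 chains, and they carry the tensile load of the extracellular matrix. Fibrillar collagens assemble into long fibres, type IV collagens form the mesh of basement membranes, and the remaining kinds link, anchor or decorate these structures. In liver the fibrillar collagens are made largely by stellate cells and portal fibroblasts, type IV collagens by stellate cells and endothelium, and type XVIII collagen by hepatocytes as well. The chains are hydroxylated and folded in the endoplasmic reticulum, trimmed outside the cell, and crosslinked.

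Celf1, the targeted gene, read 12.04, 11.84 and 11.78 on wild-type 1, 2 and 3 and 9.02, 8.61 and 8.94 on knockout 1, 2 and 3, a difference of -3.03 ± 0.22 (SE) with adjusted p = 0.0555 by limma. All 3 knockout arrays lay below all 3 wild-type arrays, and whether the probe lies inside the deleted part is unknown. The labels describe the knockout mice as male. Xist, the X-inactivation transcript, read 1.75, 10.05 and 10.82 on wild-type 1, 2 and 3 and 2.10, 10.12 and 10.20 on knockout 1, 2 and 3, and Y-linked Ddx3y read 10.66 on wild-type 1, 10.67 on knockout 1 and at most 1.88 on the other 4 arrays. By these transcripts the arrays numbered 1 went with the label, and knockout 2 and 3 went against it. The liver label was met by hepatocyte markers, since the 9 of 10 listed that were on the array were detected on all 6 arrays, with Alb the highest. Markers of other tissues were not level. The summed signal of 15 skeletal muscle genes was 2472, 2721 and 111108 on wild-type 1, 2 and 3 and 2691, 79148 and 530537 on knockout 1, 2 and 3, and that of 11 exocrine pancreas genes was highest on knockout 2, at 216961 against 3783 to 12476 on the other 5 arrays. In these bulk samples fewer cells of a type and less RNA per cell cannot be told apart.

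The collagens of newborn liver did not separate the genotypes. None of the 34 tested collagens passed an adjusted p of 0.05 in limma, where 1 of all 30924 features did, which is 0.00323% of them. At an unadjusted limma p under 0.05 there was 1 collagen, Col6a6, against 2.98% of all features. Knockout and wild-type arrays did not overlap for 3 collagens of 34, or 8.82%, against 6.71% of all features, so the share lay near the background. Those 3 were Col6a6 and Col4a6, higher in knockout, and Col18a1, lower in knockout. The median difference was -0.13 over the 34 collagens and -0.002 over all features, with 13 collagens higher and 21 lower in knockout. Leaving out wild-type 3 moved the collagen median to 0.16, with 20 higher and 14 lower, and leaving out knockout 1 moved it to 0.09. Array weights gave 25 higher and 9 lower collagens, and leaving the arrays unscaled gave 17 and 17 with a shift of 0.11 in the median of all features.

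**Figure D1:**
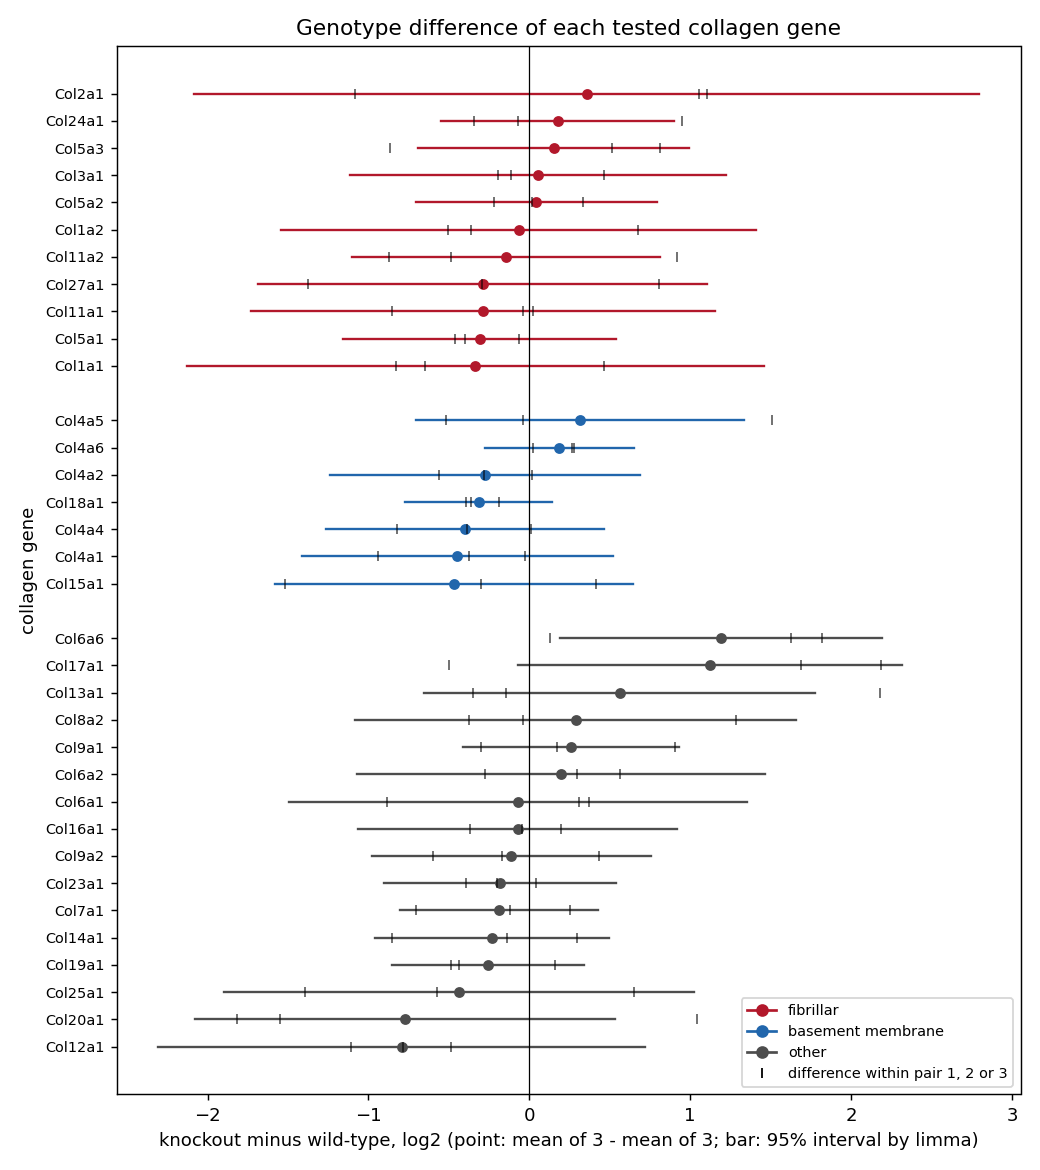
Knockout minus wild-type log2 difference of each tested collagen gene (points) with its 95% interval by limma (bars) and the differences within the pairs of same-numbered arrays (ticks), by class. The interval of Col6a6 was the only one of the 34 that did not reach 0, at 0.19 to 2.19.

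Fibrillar collagens had a median difference of -0.06, with 5 higher and 6 lower in knockout and values from -0.34 to 0.36. Basement membrane collagens had a median of -0.32, with 2 higher and 5 lower and values from -0.47 to 0.32. The lowest of these, Col15a1, was tested through the wild-type arrays alone. Other collagens had a median of -0.09, with 6 higher and 10 lower and values from -0.79 to 1.19. The fibrillar median was 0.050 on unscaled signals, 0.0031 after quantile normalization and 0.0023 on the deposited log2 values, and that of other collagens was 0.022 on unscaled signals. In the scaling of the report the fibrillar median lay 0.25 above the basement membrane median. That gap was 0.21 with type IV collagens alone in the basement membrane class. It turned to -0.10 where genes with several probes were read from the second brightest. With the median over probes the gap was 0.041 and the basement membrane median -0.11, and with array weights they were 0.39 and -0.055. Each fibrillar collagen had a single probe, so the choice of probe could not change the fibrillar median. No test was made of the gap. The median SD of a gene within a genotype was 0.72 in fibrillar and 0.57 in basement membrane collagens.

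Among fibrillar collagens, type I and type III genes followed the array more than the genotype. Col1a1, which encodes the α1 chain of type I collagen, read 13.03, 12.28 and 14.79 on wild-type 1, 2 and 3 and 12.20, 12.74 and 14.14 on knockout 1, 2 and 3. Wild-type 3 and knockout 3 were the highest arrays, and the genotypes overlapped. The difference was -0.34 ± 0.75 (SE), with a 95% interval from -2.13 to 1.46 and adjusted p = 1.00 by limma. Col1a2, the α2 chain of type I collagen, read 13.78, 12.92 and 15.17 in wild-type and 13.42, 13.59 and 14.67 in knockout, again with the arrays numbered 3 on top. Its difference was -0.06 ± 0.62 (SE), with an interval from -1.54 to 1.41. Col3a1, the chain of type III collagen in reticular fibres, read 12.38, 12.20 and 13.68 in wild-type and 12.27, 12.66 and 13.48 in knockout. The same arrays were highest, the genotypes overlapped, and the difference was 0.05 ± 0.49 (SE). The sign of all 3 genes turned when single arrays were left out, between -0.89 and 0.38 for Col1a1, -0.58 and 0.54 for Col1a2, and -0.29 and 0.51 for Col3a1.

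The upstream sequence of Col1a2 is shown as that of a type I chain with known CCAAT and GC box control. It comes from the RefSeq promoter table of GRCm38.p6, chr6:4505368-4505617 on the plus strand, the 250 bases before the first transcribed base. Capitals mark CCAAT and GGGCGG, searched on both strands. Counted from the start, CCAAT began at -109 and GGGCGG at -205 and -188.
Col1a2: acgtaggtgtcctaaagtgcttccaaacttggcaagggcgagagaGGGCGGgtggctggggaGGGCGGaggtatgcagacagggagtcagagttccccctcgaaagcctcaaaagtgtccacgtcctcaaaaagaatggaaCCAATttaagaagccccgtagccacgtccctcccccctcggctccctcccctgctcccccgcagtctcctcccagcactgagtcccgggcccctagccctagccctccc
Among the 32851 promoters listed, 33.8% held CCAAT and 32.7% held GGGCGG in their 250 bases. Among the 33 collagens with an entry, 13 held the former and 20 the latter in any of their entries. The percentages are of single entries and the counts are of genes, so they are not directly comparable. A match of letters is a description and not a shown binding site.

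The type V genes, whose chains start and limit fibril growth, spread less. Col5a1 read 11.35, 11.23 and 12.12 in wild-type and 11.29, 10.77 and 11.72 in knockout, highest on wild-type 3 and lowest on knockout 2, with a difference of -0.31 ± 0.36 (SE). Col5a2 read 7.95, 8.59 and 8.52 in wild-type and 7.97, 8.37 and 8.85 in knockout, a difference of 0.04 ± 0.31 (SE). Col5a3 read 9.44, 8.33 and 8.48 in wild-type and 8.57, 9.15 and 8.99 in knockout, a difference of 0.15 ± 0.35 (SE). The genotypes overlapped for all 3 type V genes, and their highest arrays were wild-type 3, knockout 3 and wild-type 1.

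The fibrillar collagens known from cartilage were detected on all 6 arrays. Col2a1, the chain of type II collagen, read 4.28, 4.19 and 7.86 in wild-type and 5.33, 5.29 and 6.77 in knockout. It had the widest range of any tested collagen, 12.7-fold over the 6 arrays, and a difference of 0.36 ± 1.02 (SE). Wild-type 3 and knockout 3 were highest here too. Col11a1, a chain of type XI collagen in cartilage fibrils, read 5.69, 6.54 and 7.36 in wild-type and 5.65, 5.69 and 7.38 in knockout, with the arrays numbered 3 on top and a difference of -0.29 ± 0.60 (SE). Col11a2, its partner chain, read 4.86, 5.79 and 6.37 in wild-type and 5.78, 5.31 and 5.49 in knockout, a difference of -0.15 ± 0.40 (SE) with overlapping genotypes. Of 10 markers of cartilage, tendon and bone, Matn1 was detected on no array. Their summed signal was 1114 to 2163 in wild-type and 678 to 1111 in knockout, lowest on knockout 2. The listed genes did not share an order of arrays. Comp, which had the highest mean, read 9.56, 10.80 and 8.97 in wild-type and 9.19, 7.26 and 8.68 in knockout. Tnmd read 1.84, 1.69 and 7.27 in wild-type and 1.72, 6.05 and 7.07 in knockout. Scx read 4.94, 5.96 and 8.07 in wild-type and 6.32, 7.51 and 8.36 in knockout.

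Col27a1, a minor fibrillar collagen, was low on wild-type 3, where the type I genes were highest. It read 8.63, 8.39 and 6.52 in wild-type and 7.25, 8.10 and 7.33 in knockout, so wild-type 3 was its lowest array. The difference was -0.29 ± 0.59 (SE), and it lay between -0.95 and 0.10 over the fits that left out single arrays. Col24a1, the other minor fibrillar collagen, read 4.91, 5.89 and 5.57 in wild-type and 5.86, 5.54 and 5.50 in knockout, a difference of 0.18 ± 0.30 (SE). Its lowest and its highest arrays, wild-type 1 and wild-type 2, both belonged to the same genotype.

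**Figure D2:**
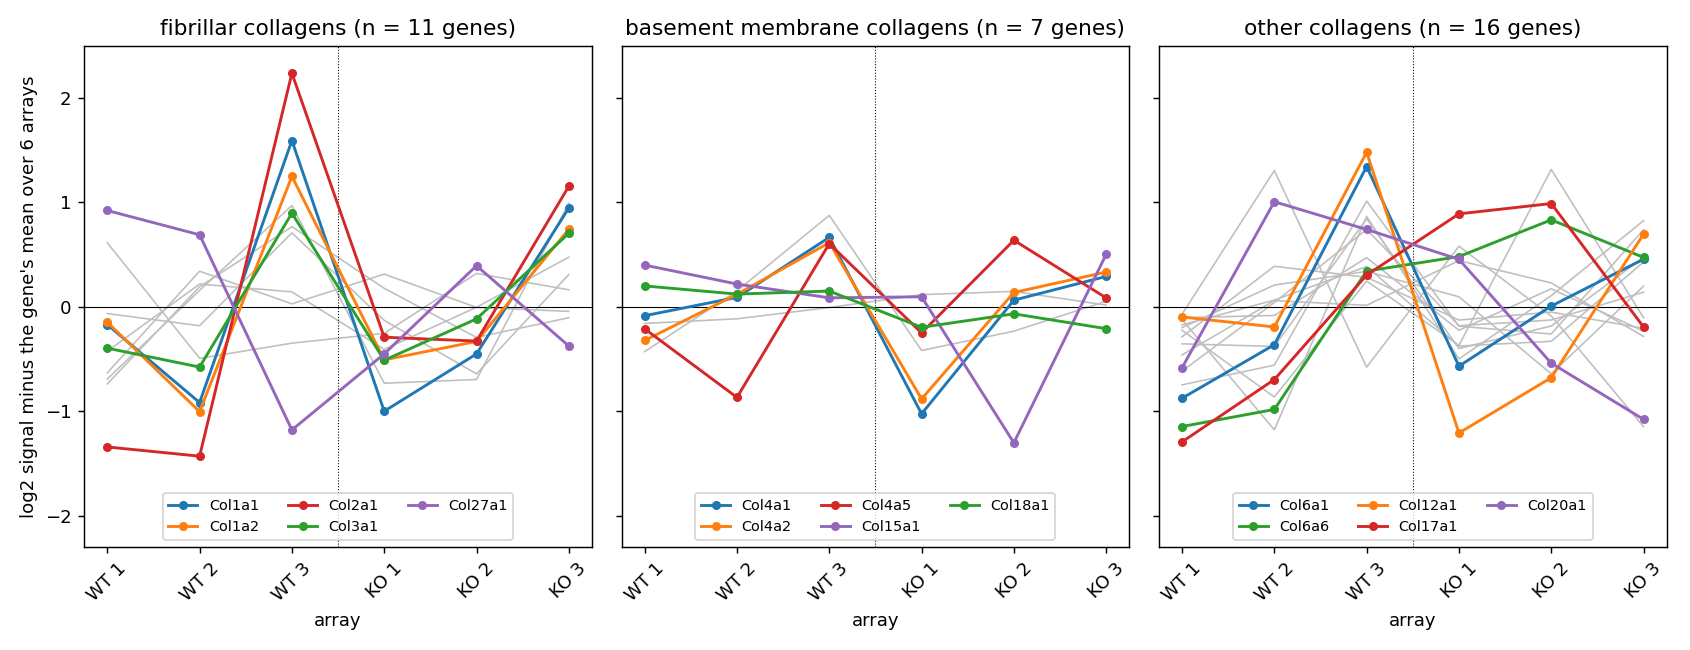
Log2 signal of each tested collagen minus its own mean over the 6 arrays, by class; lines only join the values of a gene, named genes are coloured and the rest grey. Col1a1, Col1a2, Col2a1 and Col3a1 were highest on wild-type 3 and next highest on knockout 3, whereas Col27a1 was lowest on wild-type 3 and Col18a1 stayed nearly level.

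In the basement membrane class, the ubiquitous type IV chains were lowest on a knockout array but did not separate the genotypes. Col4a1, the α1 chain of type IV collagen, read 11.02, 11.19 and 11.77 in wild-type and 10.08, 11.17 and 11.40 in knockout. Knockout 1 lay below the rest, while knockout 2 and 3 lay within the wild-type range. The difference was -0.45 ± 0.41 (SE), with an interval from -1.41 to 0.52, and it was -0.05 without knockout 1. Col4a2, the partner chain, read 10.36, 10.80 and 11.30 in wild-type and 9.80, 10.82 and 11.02 in knockout, with knockout 1 again lowest. Its difference was -0.27 ± 0.40 (SE), and it turned to 0.10 without knockout 1.

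Col4a1 and Col4a2 lie head to head and share a promoter region. In the RefSeq table their start sites are 21 bases apart on opposite strands, and the listed transcripts overlap at their starts. The bases before the Col4a1 start thus lie after the Col4a2 start. The windows of the pair, from 250 bases before to 50 bases after each start, overlap by 78 bases. The 250 bases before the Col4a1 start are shown, chr8:11312827-11313076 on the minus strand of GRCm38.p6. They were chosen because the pair had the same highest and lowest array. Col1a1, Col12a1 and Col16a1 shared that highest and lowest array, and the part of the promoter in this order was not tested. Capitals mark the match of the Col4a1 stretch to CCAAT, read on the other strand and beginning at -145 from the start. No GGGCGG was in that stretch. The 250 bases before the Col4a2 start, which are not shown, held GGGCGG at -192 and -48 and CCAAT at -32, on either strand.
Col4a1: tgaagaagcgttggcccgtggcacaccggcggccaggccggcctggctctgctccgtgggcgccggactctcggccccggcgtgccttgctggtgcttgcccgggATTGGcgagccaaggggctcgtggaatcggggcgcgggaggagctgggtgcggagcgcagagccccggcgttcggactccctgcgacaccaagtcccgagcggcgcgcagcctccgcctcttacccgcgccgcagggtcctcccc

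The type IV chains of specialised basement membranes followed no common pattern. Col4a4, known from the kidney glomerulus, read 6.16, 6.74 and 7.46 in wild-type and 6.17, 6.35 and 6.64 in knockout, a difference of -0.40 ± 0.36 (SE). Col4a5, an X-linked chain of the same network, read 6.65, 6.0 and 7.47 in wild-type and 6.62, 7.50 and 6.95 in knockout, with overlapping genotypes and a difference of 0.32 ± 0.43 (SE). Col4a6, its X-linked neighbour gene, read 7.22, 7.26 and 7.37 in wild-type and 7.50, 7.53 and 7.40 in knockout. All 3 knockout arrays of Col4a6 lay above all 3 wild-type arrays, although knockout 3 exceeded wild-type 3 by only 0.02. The difference was 0.19 ± 0.19 (SE), with adjusted p = 1.00 by limma and p = 0.1 in an exact permutation test (two-sided), and no smaller p can be had from 3 against 3 arrays. On its second probe the values were 3.96, 4.04 and 6.30 in wild-type and 5.15, 5.69 and 5.54 in knockout, where the genotypes overlapped. Col15a1, which encodes a collagen at the edge of vascular basement membranes, was detected on 5 of 6 arrays. It read 3.65, 3.47 and 3.34 in wild-type and 3.35, 1.95 and 3.75 in knockout, low on knockout 2, with a difference of -0.47 ± 0.47 (SE). Col15a1 entered the test through the wild-type arrays alone, and its difference was 0.065 without knockout 2.

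Col18a1, the source of endostatin, had the smallest spread within a genotype of the tested collagens on its brighter probe. That probe read 15.30, 15.22 and 15.25 in wild-type and 14.90, 15.03 and 14.89 in knockout. All 3 knockout arrays lay below all 3 wild-type arrays. The difference was -0.32 ± 0.19 (SE), with an interval from -0.77 to 0.14, adjusted p = 1.00 by limma and exact permutation p = 0.1. It stayed between -0.36 and -0.29 when single arrays were left out, and the genotypes overlapped on unscaled signals. The second probe read 15.09, 15.14 and 13.44 in wild-type and 14.53, 15.14 and 14.73 in knockout. On that probe wild-type 3 was the lowest array, knockout 2 equalled wild-type 2 at this precision, and the difference was 0.24. The probes thus disagreed in direction, and the Col18a1 transcripts that each of them reads are not named in the sources used here.

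**Figure D3:**
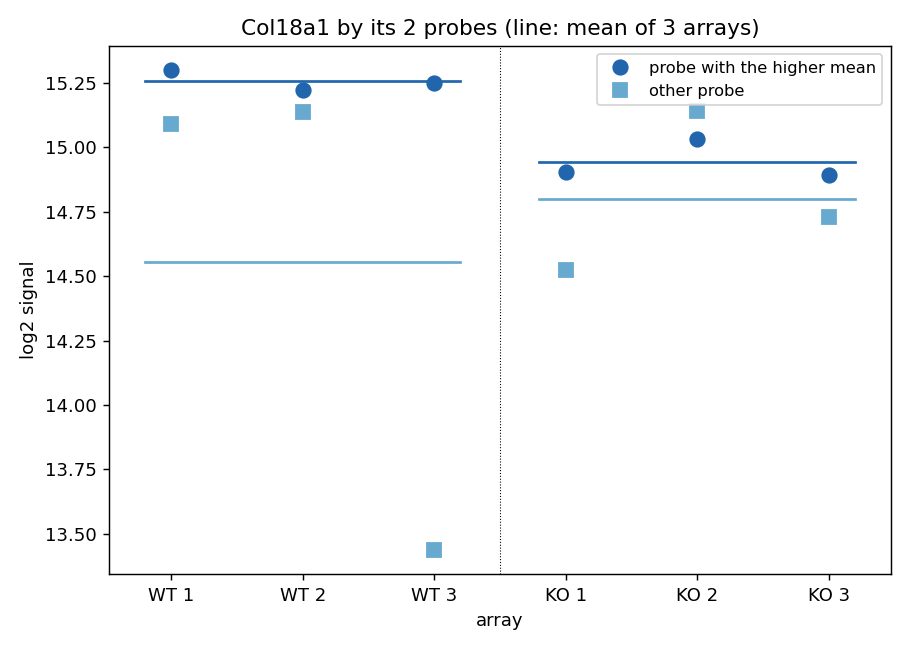
Log2 signal of the Col18a1 probes on each array, with the mean of 3 arrays per genotype as a line. On the probe with the higher mean the genotypes did not overlap, from 14.89 to 15.03 in knockout and 15.22 to 15.30 in wild-type, whereas on the other probe wild-type 3 read 13.44.

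Mouse Col18a1 is known to be transcribed from an upstream and a downstream promoter, the latter used in hepatocytes. The RefSeq table lists start sites 52825 bases apart, and both windows are shown because the probes differed. Both lie on the minus strand of GRCm38.p6, the upstream window at chr10:77166531-77166780 and the downstream window at chr10:77113706-77113955. Capitals mark matches to CCAAT and GGGCGG on either strand. The upstream window held 1 and 3 of them, and the downstream window held neither.
Col18a1 upstream: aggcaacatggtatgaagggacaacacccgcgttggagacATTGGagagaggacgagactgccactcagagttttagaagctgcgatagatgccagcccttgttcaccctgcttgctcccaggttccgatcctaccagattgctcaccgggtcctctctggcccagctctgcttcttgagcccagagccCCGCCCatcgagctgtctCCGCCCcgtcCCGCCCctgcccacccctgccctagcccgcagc
Col18a1 downstream: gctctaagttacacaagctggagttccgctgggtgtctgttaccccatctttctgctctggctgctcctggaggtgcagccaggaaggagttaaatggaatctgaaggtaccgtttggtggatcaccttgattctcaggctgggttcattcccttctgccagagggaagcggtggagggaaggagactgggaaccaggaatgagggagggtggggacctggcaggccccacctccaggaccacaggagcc

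Type VI collagen, which forms beaded filaments around cells, showed the array pattern of type I collagen in its main chains. Col6a1 read 10.86, 11.37 and 13.08 in wild-type and 11.16, 11.74 and 12.19 in knockout, a difference of -0.07 ± 0.60 (SE). Col6a2 read 8.65, 8.84 and 10.42 in wild-type and 9.22, 9.14 and 10.14 in knockout, a difference of 0.20 ± 0.53 (SE). For both genes wild-type 3 and knockout 3 were highest and wild-type 1 lowest. Col6a6, a further type VI chain, read 3.39, 3.55 and 4.88 in wild-type and 5.02, 5.37 and 5.01 in knockout. The lowest knockout array exceeded the highest wild-type array, wild-type 3, by 0.13. The difference was 1.19 ± 0.42 (SE), with unadjusted p = 0.0261 and adjusted p = 1.00 by limma. It fell to 0.33 with normexp background correction, and it was 0.92 to 1.66 when single arrays were left out. On its second probe Col6a6 was brightest on knockout 3, at 4.80, and the other 5 arrays lay between 1.89 and 2.38.

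Among collagens that coat fibrils, Col12a1 and Col20a1 had the lowest differences. Col12a1, found on fibrils of dense connective tissue, read 7.44, 7.34 and 9.02 in wild-type and 6.33, 6.86 and 8.23 in knockout. Each knockout array lay below the same-numbered wild-type array, yet knockout 3 lay above wild-type 1 and 2. The difference was -0.79 ± 0.63 (SE), with unadjusted p = 0.253 by limma. With the replicate number as a block the SE of Col12a1 was 0.23, the unadjusted p 0.0192 and the adjusted p 0.922 by limma. Col20a1 read 6.56, 8.16 and 7.89 in wild-type and 7.60, 6.61 and 6.07 in knockout, a difference of -0.78 ± 0.55 (SE) with overlapping genotypes. Its second probe gave -0.61.

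The other fibril-coating collagens differed by less. Col14a1, known from tendon and skin, read 12.23, 12.64 and 12.77 in wild-type and 12.53, 11.79 and 12.63 in knockout, low on knockout 2, with a difference of -0.23 ± 0.30 (SE). Col16a1 read 10.77, 10.75 and 11.97 in wild-type and 10.73, 10.94 and 11.60 in knockout, with the arrays numbered 3 on top and a difference of -0.07 ± 0.42 (SE). Col9a2, a chain of cartilage type IX collagen, read 7.20, 7.86 and 8.56 in wild-type and 7.64, 7.69 and 7.96 in knockout, a difference of -0.11 ± 0.36 (SE). The genotypes overlapped for all 3. Of the 7 tested fibril-coating collagens 6 were lower in knockout and 1, Col9a1, was higher at 0.26, and in pair 3 all 7 were lower in knockout.

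Col17a1, the transmembrane collagen of hemidesmosomes, read 3.04, 3.64 and 4.64 in wild-type and 5.22, 5.32 and 4.14 in knockout. Knockout 1 and 2 lay above all wild-type arrays, and knockout 3 lay inside their range. The difference was 1.12 ± 0.50 (SE), with unadjusted p = 0.061 by limma. It fell to 0.28 with normexp background correction and to 0.68 with a floor of 16. Col7a1, the chain of anchoring fibrils under squamous epithelia, read 7.74, 7.76 and 8.32 in wild-type and 7.62, 8.02 and 7.61 in knockout, a difference of -0.19 ± 0.26 (SE). The remaining transmembrane collagens differed by 0.56 (Col13a1), -0.18 (Col23a1) and -0.44 (Col25a1), the short-chain Col8a2 by 0.29 and the fibril-coating Col19a1 by -0.26, all with overlapping genotypes. On their other probes Col23a1 differed by -0.62 and 0.75, and Col25a1 by 0.42, -0.02 and 0.23. The second probes of Col8a2 and Col19a1 gave 0.20 and -0.45.

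Of the 41 collagens 7 were not tested. Col6a4 and Col28a1 were detected on no array, and Col4a3, Col9a3 and Col10a1 on 1 array each. Col22a1, known from the junction of muscle and tendon, read 1.76, 1.66 and 6.22 in wild-type and 2.07, 5.63 and 7.31 in knockout. Col8a1, a short-chain collagen of vessel walls, read 1.77, 1.66 and 4.97 in wild-type and 1.66, 4.66 and 3.72 in knockout. Both were detected on wild-type 3, knockout 2 and knockout 3 and on no other array, and those 3 arrays also held the high skeletal muscle signal given above. The part of muscle RNA in these values was not tested.

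The spread between arrays was wider for collagens than for most features. The median SD within a genotype was 0.59 over the tested collagens against 0.39 over all features, and the range over the 6 arrays was at least 2-fold in 25 of 34 collagens, against 51.7% of all features. The median range was 2.84-fold in fibrillar, 2.82-fold in basement membrane and 3.66-fold in other collagens, against 2.04-fold over all features. The order of the arrays was looked at after the values were seen. Wild-type 3 was the highest array for 17 of 34 collagens, against 6590 of all 30924 features. Wild-type 3 and knockout 3 were the highest pair of arrays for 15 of 34, against 6.46% of all features. That pair was highest in 6 of 11 fibrillar, 2 of 7 basement membrane and 7 of 16 other collagens.

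Several marker lists moved over the same arrays. The highest pair of arrays was wild-type 3 and knockout 3 for 12 of 12 tested skeletal muscle genes, 3 of 10 liver endothelium genes, 3 of 10 fibroblast and smooth muscle genes, 3 of 6 mesothelium genes, 1 of 12 stellate cell genes and 0 of 9 hepatocyte genes. It was so for 1 of 6 tested genes of cartilage, tendon and bone, 0 of 8 of exocrine pancreas and 0 of 6 of cholangiocytes. Knockout 2 was also high in skeletal muscle genes, with a median of 2.06 above each gene's mean, while the fibrillar collagens there lay at -0.29. The summed stellate cell signal was 9662 to 17591 in wild-type and 12985 to 17080 in knockout, with all 12 genes detected on every array. Colec10 was the brightest of them. The median of the stellate list, relative to each gene's mean, was -0.42, 0.23 and 0.06 in wild-type and -0.02, 0.29 and -0.22 in knockout. Liver endothelium summed to 28328 to 45854 in wild-type, highest on wild-type 3, and to 33118 to 34725 in knockout. Fibroblast and smooth muscle genes summed to 7846 to 22115 in wild-type and 12360 to 18134 in knockout, with Tagln the brightest. The median of that list, relative to each gene's mean, was -0.94, -0.77 and 0.50 in wild-type and -0.21, 0.29 and 0.06 in knockout. Mesothelium genes summed to 1938 to 4593 in wild-type, highest on wild-type 3, and to 1278 to 3992 in knockout, highest on knockout 3. The part of these tissues and cells in the collagen values was not tested. In wild-type 1 and 2 against knockout 1, the arrays low in skeletal muscle genes, the median collagen difference was -0.02, and in pairs 1 and 2 alone it was 0.02.

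**Figure D4:**
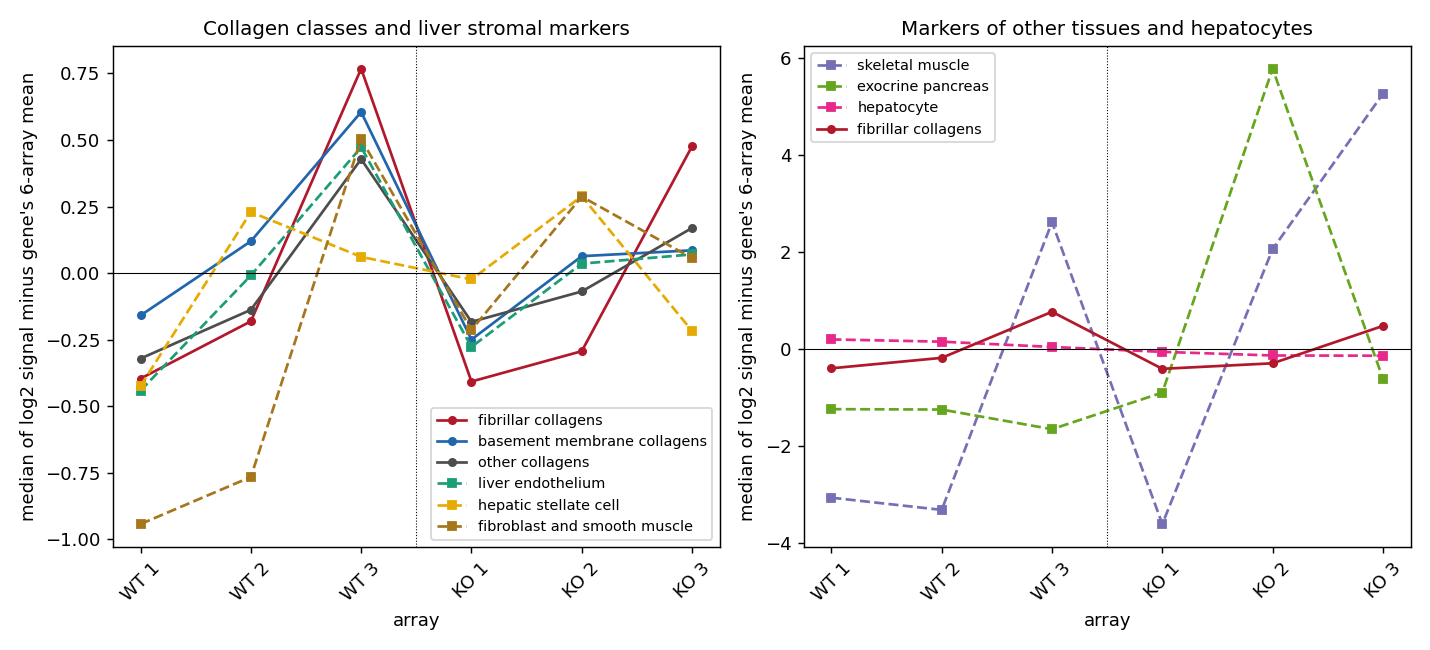
Median over the tested genes of a class or marker list of the log2 signal minus each gene's mean over the 6 arrays, for collagen classes and liver stromal markers (left) and for other tissues and hepatocytes (right, with a wider axis). Fibrillar collagens lay highest on wild-type 3 (0.77) and knockout 3 (0.48), and skeletal muscle genes highest on knockout 3 (5.26), wild-type 3 (2.61) and knockout 2 (2.06).

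Arrays of the same number are treated as pairs. Within pairs the median collagen difference was -0.04, -0.005 and -0.37 for pairs 1, 2 and 3. The differences had the same sign in all 3 pairs for 6 of 34 collagens, against 23.6% of all features. In pairs 1, 2 and 3, 18, 17 and 26 of 34 collagens were lower in knockout, among them 6, 7 and 14 of the 16 other collagens. Of all 30924 features 15680 were lower in pair 3. In pairs 2 and 3, the arrays with Xist, the collagen median was -0.11.

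The genes that build, cut and bind collagen did not pass the test either. Of 17 folding and modification genes 8 were higher and 9 lower in knockout, with a median difference of -0.002, and none passed an adjusted p of 0.05 in limma, nor an unadjusted one. P4hb, the disulfide isomerase subunit of prolyl 4-hydroxylase, read 14.24, 14.25 and 13.59 in wild-type and 14.29, 15.32 and 14.27 in knockout. Its knockout arrays lay above its wild-type arrays, knockout 1 and 3 narrowly, with a difference of 0.60 ± 0.37 (SE). Knockout 2 was also the array with the high exocrine pancreas signal, whose part in the P4hb value was not tested. Crtap, a part of the prolyl 3-hydroxylase complex, differed by 0.39 ± 0.24 (SE), and Colgalt2, a collagen galactosyltransferase, by -1.59 ± 0.99 (SE), both with overlapping genotypes. The difference of Colgalt2 lay between -2.58 and -0.94 when single arrays were left out.

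Of 13 tested genes for propeptide cleavage and crosslinking, 7 were higher and 6 lower in knockout, with a median of 0.03, and 2 had an unadjusted p under 0.05, as 2.98% of all features did. Tgm2, a transglutaminase that crosslinks matrix proteins, read 13.70, 14.12 and 15.16 in wild-type and 13.24, 13.51 and 13.36 in knockout. Its genotypes did not overlap, and the difference was -0.96 ± 0.39 (SE), with unadjusted p = 0.0444 and adjusted p = 1.00 by limma. Loxl2, a lysyl oxidase relative that crosslinks collagens, read 11.60, 11.93 and 12.06 in wild-type and 11.15, 10.97 and 11.59 in knockout. Those values did not overlap, although knockout 3 and wild-type 1 were nearly level, and the difference was -0.62 ± 0.26 (SE) with unadjusted p = 0.0481. Adamts2, which removes the amino-terminal propeptide, differed by -0.57 ± 0.34 (SE) with overlapping genotypes.

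Of 12 genes for collagen breakdown and its inhibitors, 7 were higher and 5 lower, with a median of 0.14. Mmp13, an interstitial collagenase, read 5.50, 4.25 and 7.17 in wild-type and 1.70, 1.06 and 2.66 in knockout. All 3 wild-type arrays were above the detection level and all 3 knockout arrays below it. By the means of these arrays Mmp13 was thus at least 6.62-fold lower in knockout. Without wild-type 3 that bound was 3.90-fold, and without wild-type 2 it was 10.7-fold. The bound takes no account of the spread between livers. Mmp13 entered the test through the wild-type arrays alone, and limma gave adjusted p = 1.00 from measured means of 5.64 and 1.80, of which the latter was not above the detection level. Timp1 and Timp4, inhibitors of matrix metalloproteinases, differed by -0.55 ± 0.33 and 0.73 ± 0.35 (SE), with overlapping genotypes.

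Of 10 collagen receptor genes 2 were higher and 8 lower, with a median of -0.16, and none passed. The collagen-binding integrin chains Itga2 and Itga10 differed by -0.55 ± 0.48 and -0.39 ± 0.31 (SE), and Adgrg1, an adhesion receptor for type III collagen, by 0.25 ± 0.24 (SE). Of 14 laminins and other basement membrane partners 7 were higher and 7 lower, with a median of 0.03. Nid1, which joins laminin to type IV collagen, read 12.66, 12.24 and 12.26 in wild-type and 11.80, 12.20 and 11.97 in knockout. Its genotypes did not overlap, by a narrow margin between wild-type 2 and knockout 2, and the difference was -0.40 ± 0.23 (SE), but 0.02 over the median of its probes. Lama3, a laminin chain, differed by 0.22 ± 0.21 (SE), and Agrn, agrin, by -0.42 ± 0.30 (SE). Of 13 fibril-associated matrix genes 3 were higher and 10 lower, with a median of -0.12. Among them the proteoglycan Bgn differed by -0.27 ± 0.25, the microfibril gene Fbn2 by 0.51 ± 0.38 and the collagen-binding Sparc by -0.26 ± 0.28 (SE), all with overlapping genotypes.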

How the data were processed

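Total RNA of 6 livers, 3 wild-type and 3 knockout, was read on one-colour arrays. The authors deposited a table of intensity values for 55681 probes, made with Agilent Feature Extraction per the submitters' processing notes; its version and the scanner column used are not given in the sources used here. Of its values 91 were empty. The authors also deposited log2 values of the same arrays. Recomputing these by quantile normalization and centring each probe on its median over the arrays gave 99.96% or more of probes per array within 0.05, so their scale, centring and direction are known. They served as an alternative.

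Intensities were scaled to each array's 75th percentile, whose raw value was 350.2 to 534.8, floored at 1 and transformed to log2. Arrays correlated at 0.955 to 0.984 across features. The number of arrays limits the precision. The genotypes were compared with limma 3.58.1 under R 4.3.3, by lmFit and eBayes with two-sided tests and without covariates, and p-values were adjusted by Benjamini-Hochberg over 30924 features. The fit was also run on simulated data with independent arrays, a run that does not cover the correlation of same-numbered arrays given below. A gene undetected in 1 whole genotype has only a bound on its fold, taken with those arrays at the detection level. Gene names were updated through a RefSeq table of GRCm38.p6.

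The collagens, their classes and the pathway and marker lists were chosen with earlier results of these data known. Per-array values are given for all tested fibrillar and basement membrane collagens and, among others, for the 6 with the highest mean and the 4 with the smallest unadjusted p. From each pathway list the 3 genes with the smallest p are named. Col22a1 and Col8a1 were chosen after their values were seen.

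After removal of genotype means, same-numbered arrays correlated at 0.36, 0.26 and 0.29 across features. On this ground, not by the labels, they were treated as pairs in the within-pair differences and the replicate block. The main fit did not use the pairing. The arrays numbered 1 also share the Y-linked transcripts, so a shared sex and a shared litter or batch cannot be told apart there. Alternatives covered scaling, background, floor, detection filter, choice of probe, the replicate block, array weights and each array left out. Of the value columns, 0 were without a sample.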

Additional observations from a re-analysis of the deposited data

How the results depend on the processing

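No setting gave a collagen past an adjusted p of 0.05, over the 21 settings besides that of the report that gave such a count. In the settings that gave them a value, Col6a6, Col17a1 and Col4a6 were higher and Col4a1 and Col4a4 lower in knockout. The other 23 of the 28 tested collagens with per-array values in the report turned sign in at least 1 setting, 18 of them when a single array was left out. The number of arrays and, for Col6a6, Col17a1, Col15a1 and Mmp13, signals near the detection level limit the precision. Except where the setting itself uses fewer arrays or features, the cause of each change below was not tested. Settings with pairs 1 and 2, pairs 2 and 3, or wild-type 1 and 2 against knockout 1 were chosen after seeing the data, and the last assumes that the lone knockout array varies like the wild-type arrays.

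The count of all features past the threshold was 1, and it was 2 with median scaling and with detection at the 50th percentile, and 6 with array weights. It was 0 with a floor of 16, no filter, the median over probes, the second probe, the replicate block, pairs 1 and 2, pairs 2 and 3, and wild-type 1 and 2 against knockout 1, and 0 to 1 with single arrays left out. The replicate block, which pairs same-numbered arrays, thus moved that count from 1 to 0, left 0 collagens past the threshold and changed no collagen difference. At an unadjusted limma p under 0.05 it gave 1577 features in place of 923, and 2 collagens, Col12a1 and Col6a6, in place of Col6a6 alone. The collagens without overlap were 3, but 0 without scaling or on the second probe, 1 with normexp, 3 to 9 with single arrays left out, 12 in pairs 1 and 2 and 10 in pairs 2 and 3. Of all features 6.2%, 6.67%, 4.34%, 13.2% to 20.1%, 22.8% and 30.1% did not overlap in these settings, in that order. On the second probe the fibrillar minus basement membrane gap was -0.098 and the basement membrane median 0.034. With single arrays left out, the gap was 0.11 to 0.39, and the medians were -0.29 to 0.16 over all collagens, -0.22 to 0.20 for fibrillar, -0.51 to -0.046 for basement membrane and -0.30 to 0.28 for other collagens.

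The differences of opposite sign to the reported ones follow, for the 28 tested collagens with per-array values and the named pathway genes. In wild-type 1 and 2 against knockout 1 these were 0.088 for Bgn, 0.45 for Col11a2, 0.091 for Col14a1, 0.068 for Col1a2, 0.24 for Col20a1, -0.025 for Col3a1, -0.30 for Col5a2 and -0.31 for Col5a3. Further such values were 0.051 for Col6a1, 0.11 for Col9a2 and 0.051 for Itga2. With array weights these were 0.55 for Col11a1, 0.087 for Col11a2, 0.055 for Col12a1, 0.022 for Col14a1, 0.41 for Col16a1, 0.59 for Col1a1, 0.64 for Col1a2 and 0.098 for Col4a2. Further such values were 0.089 for Col5a1, 0.57 for Col6a1 and 0.21 for Col9a2. In pairs 1 and 2 alone these were 0.22 for Col11a2, 0.076 for Col16a1, 0.16 for Col1a2, -0.10 for Col5a2, -0.027 for Col5a3, 0.34 for Col6a1, 0.068 for Col7a1 and 0.13 for Col9a2. Without scaling these were 0.041 for Col16a1, 0.050 for Col1a2, 0.044 for Col6a1 and 0.0032 for Col9a2. With the median over probes these were 0.92 for Col16a1 and 0.021 for Nid1. On the second probe these were 0.24 for Col18a1. With quantile normalization these were 0.0031 for Col1a2. With the authors' deposited log2 values these were 0.0023 for Col1a2. In pairs 2 and 3 alone these were 0.083 for Col1a2, -0.21 for Col24a1 and 0.25 for Col27a1. With normexp background correction these were -0.026 for Col2a1. Leaving out single arrays gave -0.86 to 0.12 for Col11a1, -0.55 to 0.20 for Col11a2, -0.39 to 0.031 for Col14a1, -0.84 to 0.065 for Col15a1, -0.33 to 0.33 for Col16a1 and -0.89 to 0.38 for Col1a1. It gave -0.58 to 0.54 for Col1a2, -0.097 to 0.39 for Col24a1, -0.95 to 0.10 for Col27a1, -0.27 to 1.57 for Col2a1, -0.29 to 0.51 for Col3a1 and -0.51 to 0.098 for Col4a2. It gave -0.039 to 0.70 for Col4a5, -0.18 to 0.26 for Col5a2, -0.057 to 0.50 for Col5a3, -0.53 to 0.58 for Col6a1, -0.13 to 0.75 for Col6a2 and -0.45 to 0.23 for Col9a2.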
